A study of Mus musculus with 8 samples.

Results

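The miR-181 family was examined in microglia from young and aged mice, as 8 mature strands among the 1966 mature miRNAs of the table. The strands were taken by name. They were mmu-miR-181a-5p, mmu-miR-181b-5p, mmu-miR-181c-5p and mmu-miR-181d-5p, which are the more abundant (guide) strands of their hairpins. The others were mmu-miR-181a-1-3p, mmu-miR-181a-2-3p, mmu-miR-181b-1-3p and mmu-miR-181c-3p, which are passenger strands from the other arm of the hairpins. The species prefix mmu is left out below. The family was chosen by measured values of these libraries, the high level of miR-181a-5p and the age difference of miR-181c-5p. All levels and age differences of its members are therefore given as descriptions, and nothing rests on them as independent evidence. The fit over all miRNAs includes the members, and whether it called a member is also stated only as a description.

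Microglia, the resident macrophages of the brain, were isolated by fluorescence-activated sorting as live CD11b+, CD45low, CD206- cells from male C57BL/6 mice. Young mice were 3 months and aged mice 21 months old, with 4 small RNA libraries per age. Each library came from 10000 to 40000 cells of 1 mouse, except that the library of aged mouse 4 pooled 2 mice. All groups shared strain, sex and sorting gate, and age was the only labelled difference.

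A miRNA hairpin is cut into a short duplex, of which usually 1 strand is loaded into an Argonaute protein and guides it to target mRNAs, while the other is mostly degraded. Target choice depends mainly on the seed, bases 2 to 8 of the loaded strand. The miR-181 family is conserved among vertebrates, is abundant in lymphocytes, where miR-181a tunes T cell receptor signalling, and is also expressed in brain, where it has been studied in inflammation, ischaemia and mitochondrial function.

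The mouse genome carries 6 miR-181 hairpins in 3 pairs, and the mature strands below show why the pairs can be told apart only in part. All 8 listed strands were found by name in RefSeq's miRNA annotation of GRCm38.p6, from which the sequences were taken, written 5′ to 3′ with the seed in capitals. The 5p strands were as follows.
miR-181a-5p: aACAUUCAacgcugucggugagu
miR-181b-5p: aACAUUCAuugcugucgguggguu
miR-181c-5p: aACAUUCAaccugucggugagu
miR-181d-5p: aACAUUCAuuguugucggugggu
The 3p strands of the list were these.
miR-181a-1-3p: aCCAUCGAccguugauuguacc
miR-181a-2-3p: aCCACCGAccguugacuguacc
miR-181b-1-3p: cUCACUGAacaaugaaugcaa
miR-181c-3p: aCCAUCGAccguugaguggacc

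The 4 5p strands carried 1 seed, ACAUUCA, and among the 1679 mature mouse miRNAs of that annotation no other miRNA had it. Counted from 1 at the 5′ end, miR-181b-5p differed from miR-181a-5p by A9U, C10U and A21G and was 1 base longer. miR-181d-5p differed from miR-181b-5p by C12U and was 1 base shorter, and miR-181c-5p was miR-181a-5p less 1 base. The passenger strands did not share the seed of the 5p strands. miR-181a-1-3p and miR-181c-3p had the seed CCAUCGA and differed by U16G and U19G, whereas miR-181a-2-3p had the seed CCACCGA and differed from miR-181a-1-3p by U5C and U16C. Because the 5p strands are so alike, their counts depend on how the authors' mapping separated near-identical sequences, and counts of single 5p strands carry that uncertainty.

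Mir181a-1 (chr1:137966455-137966541, plus strand, GRCm38) and Mir181b-1 (chr1:137966639-137966718, plus strand) lie 97 bp apart within an intron of the transcript Gm4258 on the same strand and an intron of the lincRNA Gm26936 on the opposite strand. An exon of the lincRNA A430106G13Rik, on the same strand, overlaps part of Mir181a-1 and all of Mir181b-1. Mir181a-2 (chr2:38852735-38852810, plus strand) and Mir181b-2 (chr2:38853830-38853918, plus strand) lie 1019 bp apart in an intron of Nr6a1, a nuclear receptor gene on the opposite strand, and Mir181b-2 also lies in an exon of Gm44144 on the opposite strand. Mir181c (chr8:84178873-84178961, minus strand) and Mir181d (chr8:84178716-84178787, minus strand) lie 85 bp apart in an intron of Nanos3 on the same strand. The 5p strand of miR-181a has the same sequence from chromosome 1 and chromosome 2, and so has that of miR-181b, so their 5p counts sum over both pairs of hairpins. Only the 3p strands tell those hairpins apart.

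The libraries held 208379 to 298820 miRNA counts in young and 150322 to 235124 in aged mice, with 315 to 441 miRNAs detected. Levels are given as counts per 1000000 miRNA counts of the library (CPM), and 3 counts, taken as the detection floor, stood for 10.0 to 20.0 CPM. The label of the cells was checked against miRNA markers. The 5 microglial and myeloid markers, miR-142a-3p, miR-142a-5p, miR-223-3p, miR-146a-5p and miR-155-5p, summed to 63396 to 75324 CPM in young and 48186 to 72398 CPM in aged libraries. The 7 neuronal markers (miR-124-3p, miR-9-5p, miR-9-3p, miR-128-3p, miR-138-5p, miR-129-5p and miR-218-5p) summed to 955 to 2615 CPM in young and 1164 to 2719 CPM in aged libraries. The 3 oligodendrocyte markers (miR-219a-5p, miR-219a-2-3p and miR-338-3p) summed to 269 to 524 and 258 to 519 CPM, and the 2 endothelial markers (miR-126a-3p and miR-126a-5p) to 3.35 to 84.8 and 4.25 to 111 CPM. In sorted cells measured in bulk, fewer cells of a type and less RNA per cell cannot be told apart.

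miR-181a-5p was the most abundant strand of the family. It stood at 133221, 187377, 129475 and 166228 CPM in young mice 1 to 4 and at 138070, 124529, 138374 and 147813 CPM in aged mice 1 to 4. The ages overlapped, and the highest and lowest values were those of young mouse 2 and aged mouse 2. It ranked first or second among all miRNAs in every library and first by the median of each age. The mean was 154075 ± 27669 CPM (SD, n = 4) in young and 137196 ± 9580 CPM (SD, n = 4) in aged microglia, a log2 fold change (aged minus young, edgeR) of -0.10 with a standard error of 0.19.

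miR-181b-5p, its partner in both clusters, was the next most abundant member. It stood at 9114, 18265, 7386 and 13138 CPM in young and at 8392, 6920, 6548 and 7780 CPM in aged mice. Young mice 1, 2 and 4 were above every aged mouse, and young mouse 3 lay within the aged range. The mean was 11976 ± 4836 CPM (SD, n = 4) in young and 7410 ± 834 CPM (SD, n = 4) in aged mice, with a log2 fold change of -0.61 ± 0.22 (SE). By median level it ranked 19th in young and 21st in aged microglia.

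miR-181c-5p was the member with non-overlapping ages at levels far above the floor. It stood at 659, 921, 730 and 922 CPM in young and at 239, 373, 293 and 355 CPM in aged mice, from 192 to 215 counts and from 36 to 69 counts. Each young mouse was above each aged mouse, also after scaling with TMM factors, and the gap between the lowest young and the highest aged library was wider than the range within either age. The mean was 808 ± 134 CPM (SD, n = 4) in young and 315 ± 61.0 CPM (SD, n = 4) in aged microglia, 2.56-fold higher in young, with a log2 fold change of -1.29 ± 0.31 (SE). Its rank by median level moved from 61 in young to 99 in aged mice.

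miR-181d-5p, which shares the chromosome 8 cluster with miR-181c-5p, did not separate the ages. Its level was 127, 350, 173 and 133 CPM in young and 180, 160, 93.6 and 166 CPM in aged mice, from 22 to 73 counts. Young mouse 2 was the highest library, and the other young mice lay among the aged ones. The log2 fold change was -0.28 ± 0.41 (SE), the sign turned to 0.03 without young mouse 2, and the value was -0.09 without aged mouse 3.

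**Figure D1:**
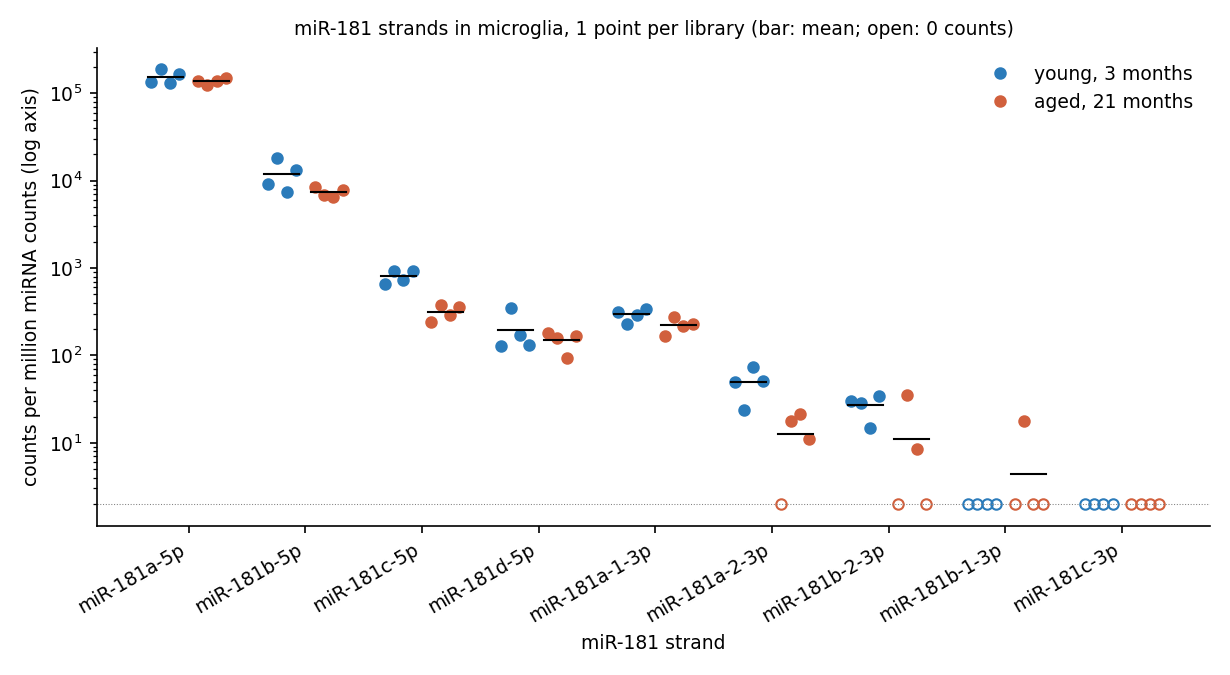
Level of each miR-181 strand in CPM (log axis), 1 point per library, young in blue and aged in orange, with the mean of each age as a bar. Open points on the dotted line are libraries with 0 counts. The 5p strands fall in steps from miR-181a-5p to miR-181d-5p, and the ages of miR-181c-5p stand apart, at 659 to 922 against 239 to 373 CPM.

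The order of the 5p strands, a over b over c over d, held in each of the 8 libraries. The mean levels of neighbouring strands in that order were further apart than their SD in each age. miR-181a-1-3p, at 222 ± 46.0 CPM (SD, n = 4) in aged mice, lay between miR-181c-5p and miR-181d-5p in mean level in both ages. In aged mice its range, 166 to 278 CPM, overlapped the ranges of miR-181c-5p and miR-181d-5p. In young mice its range, 230 to 343 CPM, lay within that of miR-181d-5p, 127 to 350 CPM. In young mouse 2 and aged mouse 1 miR-181a-1-3p was below miR-181d-5p.

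The passenger strands were rare. miR-181a-1-3p, from the chromosome 1 hairpin, stood at 315, 230, 291 and 343 CPM in young and at 166, 278, 217 and 227 CPM in aged mice. The ages overlapped, since aged mouse 2 was above young mouse 2. The mean was 295 ± 48.0 CPM (SD, n = 4) in young mice, and the log2 fold change was -0.37 ± 0.36 (SE). It was -0.16 without young mouse 1 and ranged from -0.54 to -0.16 with 1 library left out.

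miR-181a-2-3p, from the chromosome 2 hairpin, was lower still, with 15, 5, 20 and 12 counts in young and 0, 3, 5 and 2 counts in aged mice. These counts are 50.2, 23.99, 73.8 and 51.5 CPM in young and 0, 17.8, 21.3 and 11.1 CPM in aged mice. The ages did not overlap in CPM, with 23.99 CPM as the lowest young and 21.3 CPM as the highest aged value, but they overlapped after scaling with TMM factors. The log2 fold change was -1.88 ± 0.96 (SE), and the aged libraries with 0 or 2 counts were below the floor of 3 counts.

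The remaining passenger strands of the list were at or near 0. miR-181b-1-3p had 3 counts in aged mouse 2 and 0 in the other 7 libraries, and miR-181c-3p had 0 counts in all 8 libraries. Neither passed the filter, which asked for 5 or more counts in 10% or more of an age's libraries. Of the strands outside the list, miR-181d-3p also had 0 counts throughout. miR-181b-2-3p had 9, 6, 4 and 8 counts in young and 0, 6, 2 and 0 counts in aged mice, with a log2 fold change of -1.20 ± 1.25 (SE). That value was -2.87 without aged mouse 2, which held 6 of the 8 aged counts, -0.80 without aged mouse 4, -1.80 with a replicate block and -2.63 with limma on log2(CPM + 1).

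Across all miRNAs, 419 passed the filter, and 16 of them (3.82%) had an adjusted p-value under 0.05 between ages in edgeR's quasi-likelihood test, 9 higher and 7 lower in aged mice. Of the 8 listed strands 6 were tested, and 1 of them, miR-181c-5p, was among the 7 lower miRNAs, which were 1.67% of those tested. The log2 fold change was below 0 for all 6 tested strands in this fit, with a median of -0.49 against -0.07 over the 419 miRNAs. These strands are not separate observations, and the signs of miR-181a-5p and miR-181d-5p turned when 1 library was left out. miR-181c-5p and miR-181a-2-3p were the 2 tested strands whose CPM in every aged library was below that in every young library, a pattern seen in 2.39% of all tested miRNAs. Since miR-181c-5p was known to differ when the family was chosen, these shares carry no further weight.

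**Figure D2:**
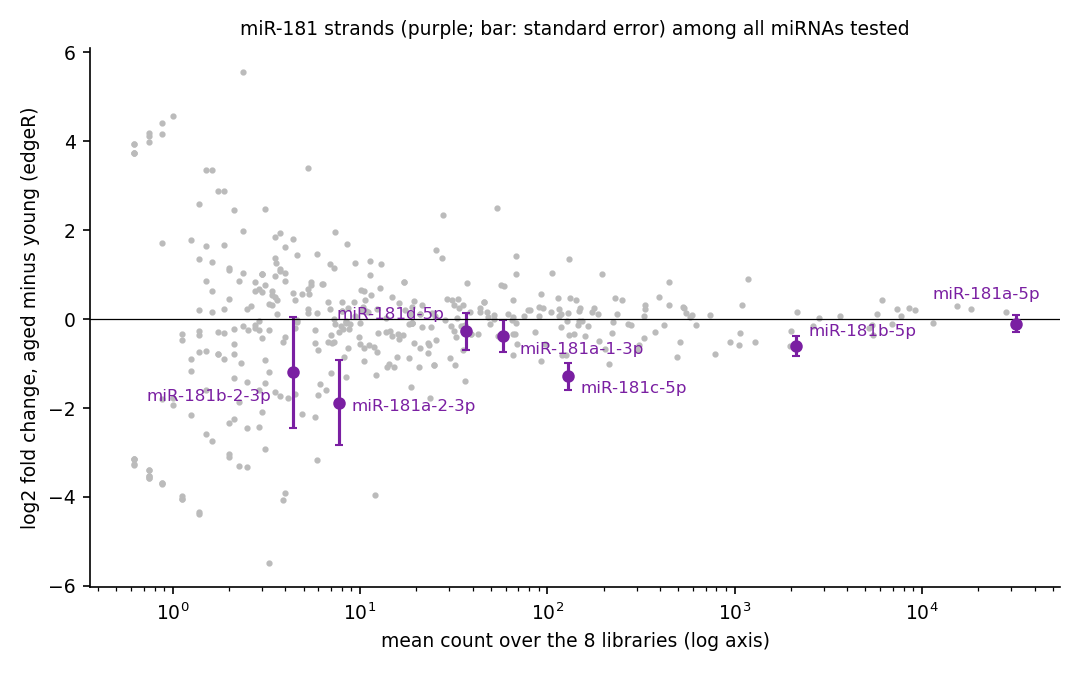
Log2 fold change (aged minus young, edgeR) against the mean count over the 8 libraries (log axis), with the miR-181 strands in purple and their standard error as bars, and the other tested miRNAs in grey. miR-181c-5p lies at -1.29 with a short bar, while miR-181a-2-3p (-1.88) and miR-181b-2-3p (-1.20) lie at low counts with long bars.

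The chromosome 8 cluster was compared with the a and b clusters by shares within a library, which need no scaling between libraries. miR-181c-5p and miR-181d-5p together made up 0.549%, 0.615%, 0.656% and 0.585% of the 5p counts of the family in young mice 1 to 4. In aged mice 1 to 4 they made up 0.285%, 0.404%, 0.266% and 0.334%. The ages did not overlap, and the exact binomial intervals (95%, counting error only) reached from 0.482% to 0.743% in young and from 0.214% to 0.496% in aged libraries, and between the ages only the intervals of aged mouse 2 (up to 0.496%) and young mouse 1 (from 0.482%) overlapped. The mean share was 0.601% ± 0.045 (SD, n = 4) in young and 0.322% ± 0.061 (SD, n = 4) in aged microglia.

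Most of this difference lay in miR-181c-5p. As a share of the 5p counts it was 0.487% ± 0.040 (SD, n = 4) in young and 0.219% ± 0.050 (SD, n = 4) in aged mice, without overlap. miR-181d-5p was 0.114% ± 0.043 (SD, n = 4) and 0.104% ± 0.027 (SD, n = 4) of the 5p counts, with overlap.

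**Figure D3:**
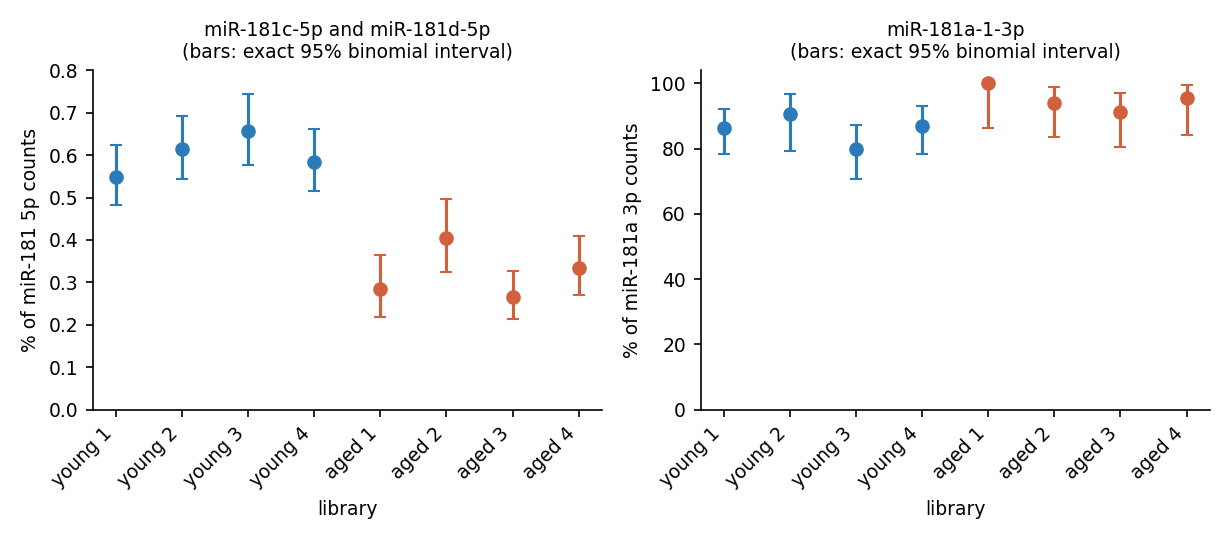
Left, the share of miR-181c-5p and miR-181d-5p in the 5p counts of the family, in percent, per library. Right, the share of miR-181a-1-3p in the 3p counts of miR-181a, in percent. Bars are exact 95% binomial intervals. The left shares are 0.549% to 0.656% in young and 0.266% to 0.404% in aged libraries, and on the right the intervals of the ages overlap.

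Pairs of 5p strands were then set against each other within libraries. The count ratio of miR-181c-5p to miR-181d-5p was 4.74 ± 1.80 (SD, n = 4) in young and 2.23 ± 0.74 (SD, n = 4) in aged mice. On the log2 scale, with 0.5 added to each count, it ran from 1.39 to 2.77 in young and from 0.41 to 1.63 in aged mice, so young mouse 2 lay within the aged range. The ratio of miR-181c-5p to miR-181a-5p, the strand from which it differs by 1 base, left no overlap, with miR-181c-5p at 0.526% ± 0.038 (SD, n = 4) of miR-181a-5p in young and 0.231% ± 0.053 (SD, n = 4) in aged mice.

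Within the a and b clusters, miR-181a-5p was 13.8 ± 3.08 times (SD, n = 4) as abundant as miR-181b-5p in young and 18.6 ± 1.96 times (SD, n = 4) in aged mice. The log2 ratio was 3.87, 3.36, 4.13 and 3.66 in young and 4.04, 4.17, 4.40 and 4.25 in aged mice, and young mouse 3 lay within the aged range. miR-181a-5p made up 92.4% ± 1.46 (SD, n = 4) of the 5p counts in young and 94.6% ± 0.52 (SD, n = 4) in aged mice, without overlap by a narrow margin, from 93.98% in young mouse 3 to 94.00% in aged mouse 1.

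**Figure D4:**
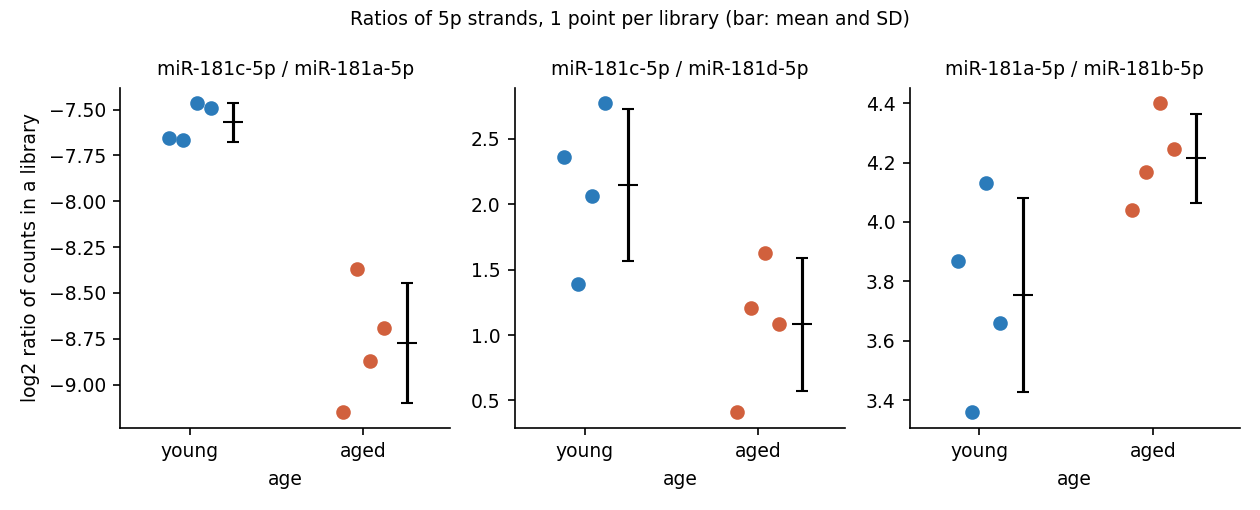
Log2 count ratios of pairs of 5p strands within each library (0.5 added to each count), young in blue and aged in orange, with mean and SD beside the points; the vertical axes differ between panels. The ages stand apart for miR-181c-5p over miR-181a-5p and overlap for the other two ratios.

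Summed over the 4 5p strands, the family held 16.7% ± 3.27 (SD, n = 4) of all miRNA counts in young and 14.5% ± 0.99 (SD, n = 4) in aged microglia. The share ran from 13.2% in aged mouse 2 to 20.7% in young mouse 2, and the ages overlapped. The 4 strands with the shared seed therefore differed in sum by less than the SD of the young mice, while miR-181c-5p contributed under 0.530% of that sum in every library. The aged minus young difference of the summed level was -21984 CPM, and it was -8698 CPM without young mouse 2 and -31747 CPM without young mouse 3.

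The 5p arm was compared with the 3p arm. Over the 8 libraries miR-181a had 253678 counts on the 5p arm and 527 on the 3p arm, a 3p share of 0.207%. For miR-181b the 3p share was 0.223% (38 counts, miR-181b-2-3p included). By library the miR-181b share was uneven, at 0.157% to 0.329% in young mice and 0%, 0.765%, 0.130% and 0% in aged mice 1 to 4. For miR-181c the 3p share was 0 of 1034 counts, where the detection floor of 3 counts would be a share of 0.290%. For miR-181d it was 0 of 295 counts, where 3 counts would be 1.02%. These 2 values are floors and no confidence limits. The absence of their 3p strands was thus not distinguishable, at this depth, from the 3p shares of miR-181a and miR-181b.

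These arms were placed among 125 hairpin names outside the family with a single row for each arm and at least 100 counts. Their median minor arm share was 1.53%, and 42 of the 125 (33.6%) had a smaller minor arm than miR-181a. The 5p arm was the major one in 72 of the 125 (57.6%), and in all 4 miR-181 names.

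By library, the 3p share of miR-181a was 0.273%, 0.136%, 0.281% and 0.237% in young and 0.120%, 0.237%, 0.172% and 0.161% in aged mice. Young mouse 2 lay among the aged mice and aged mouse 2 among the young ones. The mean was 0.232% ± 0.067 (SD, n = 4) in young and 0.173% ± 0.048 (SD, n = 4) in aged mice. The aged minus young difference of -0.059 percentage points became -0.091 without young mouse 2.

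Between the 2 hairpins of miR-181a, most 3p counts were those of the chromosome 1 copy. miR-181a-1-3p made up 86.2%, 90.6%, 79.8% and 87.0% of the 3p counts of miR-181a in young and 100%, 94.0%, 91.1% and 95.3% in aged mice. The ages did not overlap as point values, but the intervals did, with a highest upper bound of 96.9% in young and a lowest lower bound of 80.4% in aged libraries. The mean was 85.9% ± 4.48 (SD, n = 4) and 95.1% ± 3.72 (SD, n = 4). For miR-181b the 3p counts were few and split the other way. Over all libraries miR-181b-1-3p (chromosome 1) had 3 counts and miR-181b-2-3p (chromosome 2) had 35. The 3p counts thus did not favour the same cluster for miR-181a and miR-181b. These values count 3p strands that were kept, and the 5p output of each hairpin was not measured.

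Across the 8 libraries, on log2 CPM with TMM factors, miR-181a-5p and miR-181b-5p had a Pearson correlation of 0.84 and miR-181c-5p and miR-181d-5p one of 0.25. Within young and aged mice these were 0.90 and 0.57, and -0.32 and 0.16. Between clusters, miR-181a-5p had 0.43 with miR-181c-5p and 0.19 with miR-181d-5p. miR-181b-5p had 0.68 and 0.55 with the same strands, so the correlations did not sort by cluster. These values are descriptions over libraries that share age, depth and scaling. Among 162 miRNAs with a mean of at least 20 counts, those most like miR-181a-5p over the 8 libraries were miR-378c (r = 0.82), miR-187-3p (r = 0.79) and miR-1895 (r = 0.78). Those most like miR-181c-5p were miR-542-5p (r = 0.95), miR-744-5p (r = 0.91) and miR-322-5p (r = 0.84). miR-542-5p was at 236 CPM in young and 84.8 CPM in aged mice on average, and miR-744-5p at 690 and 370 CPM. For both, each aged library was below each young one after TMM scaling, and edgeR called miR-542-5p but not miR-744-5p. Their correlations with miR-181c-5p therefore include the age difference. miR-542-5p (chrX:53049453-53049474) and miR-322-5p (chrX:53054306-53054327) lie close together, so they are not separate matches.

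The cluster of miR-23a, miR-27a and miR-24-2, which lies 29556 bp from Mir181c on chromosome 8 and on the opposite strand, was listed for comparison. Of its 6 strands 5 were tested, and none was among the 16 miRNAs called by edgeR, with 0 at an unadjusted p under 0.05 and 0 called by DESeq2 or limma. Of all 419 tested miRNAs 51 had such an unadjusted p in edgeR, so 0 of 5 carries little weight. The median log2 fold change of the 5 strands was -0.27, against -0.07 over all tested miRNAs, and 4 of the 5 were below 0. miR-24-3p, also made from another locus, stood at 28959 ± 8894 CPM (SD, n = 4) in young and 21327 ± 805 CPM (SD, n = 4) in aged mice, and miR-23a-3p at 10307 ± 2714 and 8096 ± 637 CPM (SD, n = 4 each). The ages of miR-24-3p overlapped in CPM. After scaling with TMM factors each aged library was below each young one, with a log2 fold change of -0.35 ± 0.21 (SE).

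The list of 12 miRNAs for myeloid cells and inflammation held miR-142a-3p, miR-142a-5p, miR-223-3p, miR-146a-5p, miR-146b-5p, miR-155-5p, miR-21a-5p, miR-132-3p, miR-125b-5p, miR-99a-5p, let-7a-5p and miR-191-5p. Of these 11 were tested and 1 was called, beside 3.82% of all tested miRNAs, and their median log2 fold change was 0.16 against -0.07 over all 419. At an unadjusted p under 0.05 in edgeR there were 3, beside 51 of all 419 tested miRNAs. miR-155-5p, which is induced on macrophage activation, rose from 50.5 ± 17.7 to 242 ± 77.5 CPM (SD, n = 4 each; edgeR, adjusted p = 7.5e-05). miR-146a-5p, a feedback inhibitor of Toll-like receptor signalling, stood at 54772 ± 1878 and 50036 ± 9612 CPM (SD, n = 4 each). The other members with an unadjusted p under 0.05 had opposite signs and were not called. miR-142a-3p, a miRNA of blood-derived lineages, stood at 10986 ± 4137 CPM in young and 6693 ± 2116 CPM in aged mice (SD, n = 4 each), with overlap and a log2 fold change of -0.62 ± 0.22 (SE). miR-223-3p, known from granulocytes and other myeloid cells, stood at 0 to 36.8 CPM in young and 44.4 to 97.8 CPM in aged mice, without overlap and with a log2 fold change of 1.69 ± 0.82 (SE). Both lists were chosen with results of these data known.

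Markers of other cells moved with age in part. Of the 3 red cell markers, miR-451a rose (edgeR, adjusted p = 0.0024). Its ages overlapped, at 91.2 to 317 CPM in young and 220 to 815 CPM in aged mice. miR-144-3p had a log2 fold change of 1.97 ± 0.90 (SE) and was not called, and miR-486a-5p was at 0 in all libraries. The sum of the 3 was 110 to 339 CPM in young and 233 to 932 CPM in aged mice. Of the 4 epithelial and choroid plexus markers, miR-184-3p rose (edgeR, adjusted p = 1.9e-08). Its ages overlapped, at 52.8 to 150 CPM in young and 102 to 1314 CPM in aged mice, with an aged mean of 484 ± 570 CPM (SD, n = 4). miR-204-5p had a log2 fold change of 0.25 ± 0.39 (SE) and was not called. miR-200a-3p and miR-200b-3p, with 8 and 2 counts over all libraries, were not tested. The 4 markers summed to 110 to 652 CPM in young and 237 to 1653 CPM in aged mice. Neither the rise of miR-451a nor that of miR-184-3p was called by limma on log2(CPM + 1). None of the 7 neuronal markers was called by edgeR, with 0 at an unadjusted p under 0.05 and 0 called by DESeq2 or limma. Since 51 of all 419 tested miRNAs had such an unadjusted p in edgeR, 0 of 7 carries little weight. The lymphocyte marker miR-150-5p, relevant because lymphocytes are rich in miR-181a, was at 0 to 73.8 CPM in young and 8.51 to 99.8 CPM in aged libraries, and it was not called. The part of these cells in the miR-181 values was not tested.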

How the data were processed

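Small RNA of sorted microglia was sequenced in 8 libraries, 4 per age. The authors ran miRMaster with alignment to GRCm38 and Bowtie mapping to mature miRNAs of miRBase, and deposited estimated counts (expected counts) per mature miRNA, neither normalized nor filtered. A fraction occurred in 68 of 3173 nonzero values, 7 of them in miR-181a-5p and miR-181b-5p, and the division of reads with several matches is not given in the sources used here. PCR copies were not marked, so intervals and floors cover counting error only. Same-named replicate numbers are different mice.

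Counts were used as deposited for CPM, shares and ratios, and rounded for tests. miRNAs with 5 or more counts in 10% or more of an age's libraries were kept (419). Ages were compared with edgeR 4.0.16 in R 4.3.3 (TMM, quasi-likelihood fit with the default option, two-sided, Benjamini-Hochberg over 419). This test reports no standard error. The SE given with a log2 fold change is its absolute value divided by the square root of the F statistic of the test, an approximation. The step was also run on simulated counts with the same dispersion for all miRNAs. That setting is simpler than these data, so the run does not bear on single calls. Intervals are exact (Clopper-Pearson, 95%, scipy 1.17.1). Alternatives used DESeq2 1.42.0, limma 3.58.1, other scalings and filters, a replicate block and each library left out. Markers and lists are given in the text, and likeness is the Pearson correlation of log2 TMM-scaled CPM. The named miRNAs are the strands of the family, those lists and the 3 most alike to miR-181a-5p and miR-181c-5p. The members and lists were chosen with earlier results of these data known. p-values set the age difference against the spread between these libraries.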

Additional observations from a re-analysis of the deposited data

Results flagged for a closer look

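In groups of 4 libraries, the gap of the most extreme library to its neighbour was divided by the range of the group and set against Dixon's 95% critical value. This was done for the CPM of the listed strands and for the shares and ratios, in each age with any spread, 25 groups in all, of which chance flags about 1 in 20. One stood out, miR-181b-1-3p in aged mice, with a value of 1: aged mouse 2 held 3 counts (17.8 CPM) and the other 3 aged mice 0, so the value rests on 3 counts, the detection floor.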

How the results depend on the processing

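The 16 miRNAs called became 2 with the bias-adjusted fit, 4 with limma on log2(CPM + 1) and 1 with at least 10 counts in every library (156 miRNAs tested). They numbered 12 to 15 with DESeq2 (13), its size factors in edgeR (15), total counts as library sizes (12) and no filter (13). Leaving out 1 library gave 6 to 21, with 9 without young mouse 2, 7 without aged mouse 1 and 6 without aged mouse 3. The log2 fold change of miR-181c-5p, known when the family was chosen and so only described, was -1.40 to -1.19 over the alternatives. miR-181b-5p, not called otherwise, had an adjusted p under 0.05 without young mouse 3 (-0.72). The sign turned for miR-181a-5p without young mouse 1 (0.0081, from -0.10, over a range of -0.13 to 0.0081 with 1 library left out) and for miR-181d-5p without young mouse 2 (0.031, from -0.28, over -0.41 to 0.031); the cause was not tested. Aged minus young, leaving out 1 library, the share of miR-181c-5p and miR-181d-5p differed by -0.306 to -0.260 percentage points, the log2 ratio of miR-181c-5p to miR-181d-5p by -1.32 to -0.84 and the log2 ratio of miR-181a-5p to miR-181b-5p by 0.33 to 0.58. The summed 5p level differed by -31747 to -8698 CPM with 1 library left out, by -14936 CPM with TMM scaling and by -15676 CPM with medians, against a pooled SD of 24134 CPM that exceeds the difference itself. The 3p share of miR-181a differed by -0.091 to -0.042 percentage points, and the share of miR-181a-1-3p by 7.18 to 10.8. All signs of these shares, ratios and levels were kept. With the replicate number as a block, 11 miRNAs were called, and the log2 fold change of miR-181c-5p was -1.30. Deviations of same-numbered mice had correlations of -0.17 to 0.175 over 167 miRNAs, so the numbers were not taken as pairs. Depth limits miR-181a-2-3p, miR-181b-2-3p and the 3p arms of miR-181c and miR-181d, at 0 to 20 counts per library.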
